A study of Mus musculus with 6 samples.

Results

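The genes described here are named as protein subunits of the mitochondrial ribosome. They are the genes of the deposited table whose ID has a symbol made of Mrpl (large subunit) or Mrps (small subunit), a number and at most 1 letter. That rule used no measured value and gave 77 of 35275 gene IDs, 48 Mrpl and 29 Mrps. Of these, 76 passed the filter on low counts and were tested (47 Mrpl and 29 Mrps). The exception, Mrpl53, had 0 counts in all 6 libraries. It shares exon bases with other genes in GENCODE M21, and how such reads were counted is not given, so no limit on its level is drawn from that 0. Levels are given as CPM, the count scaled to the size of its library.

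Mitochondria keep a small genome whose messenger RNAs encode core subunits of the respiratory chain and of ATP synthase. These are translated inside the organelle by a ribosome of its own, built from mitochondrially encoded ribosomal RNA and from proteins that are all encoded in the nucleus, made in the cytosol and imported. Some of these proteins have counterparts in bacterial ribosomes, and the others are specific to mitochondria. The large subunit joins amino acids and passes the growing chain out through an exit tunnel to the inner membrane, and the small subunit binds the messenger RNA and decodes it.

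RNA was measured by sequencing poly(A)-selected RNA of Melb-a, a mouse melanoblast line that was derived from C57BL/6J skin and grows without limit. All cells were kept in DMEM with 10% serum, 2 nM NDP-α-MSH, a melanocortin analog, and 200 nM PMA, a phorbol ester, a medium in which these cells make pigment. For 48 h the medium also held the vehicle DMSO (3 libraries) or 10 µM iBRD9 (3 libraries), an inhibitor of the bromodomain of BRD9, which belongs to one type of SWI/SNF chromatin remodeler. With 1 compound at 1 dose in 1 line, effects through BRD9 and any other effects of the compound cannot be told apart.

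The libraries held 22846391 to 29680952 counts. Melanocyte lineage markers summed to 17100 to 18700 CPM with DMSO and 16300 to 18000 CPM with iBRD9, and none of the 9 was at 0. That sum hides moves in both directions: 5 of the 9 were called lower (Tyr, Slc45a2, Sox10, Tyrp1 and Mlana) and Dct was called higher. The 6 keratinocyte markers summed to 3.32 to 4.17 and 3.77 to 4.51 CPM (Krt1 and Krt5 at 0), the 5 immune markers to 5.72 to 7.12 and 4.07 to 5.15 CPM (Ptprc and Cd3e at 0). The 4 endothelial markers summed to 1.39 to 1.52 and 4.58 to 6.39 CPM and the 6 fibroblast markers to 74.6 to 94.7 and 136 to 150 CPM, with none at 0. Whether other cells had a part in the results was not tested. DMSO replicate 1 stood apart from the other libraries of its group, so the counts by subunit and by list are also given without it.

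Of 47 Mrpl genes, 23 were lower and 5 were higher with iBRD9 than with DMSO (edgeR quasi-likelihood test, Benjamini-Hochberg adjusted p under 0.05 over all genes), beside 30.9% of all tested genes lower and 29.8% higher, 60.7% in all. That is 48.9% of the Mrpl genes lower and 10.6% higher. Of 29 Mrps genes, 16 were lower and 1 was higher, or 55.2% and 3.45%. The median log2 fold change, iBRD9 over DMSO, was -0.25 for Mrpl and -0.26 for Mrps genes and 0.01 for all 13602 tested genes. Among the 8284 tested genes of the members' range of abundance, 36.1% were lower and 29.2% higher, with a median of -0.05. Falls of at least 1.5-fold were called in 7 of 47 Mrpl and 4 of 29 Mrps genes, shares near the 13.7% of all tested genes. No member rose by as much, where 17% of all tested genes did. In bulk RNA, fewer cells that express a gene and less of its RNA per cell cannot be told apart.

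**Figure D1:**
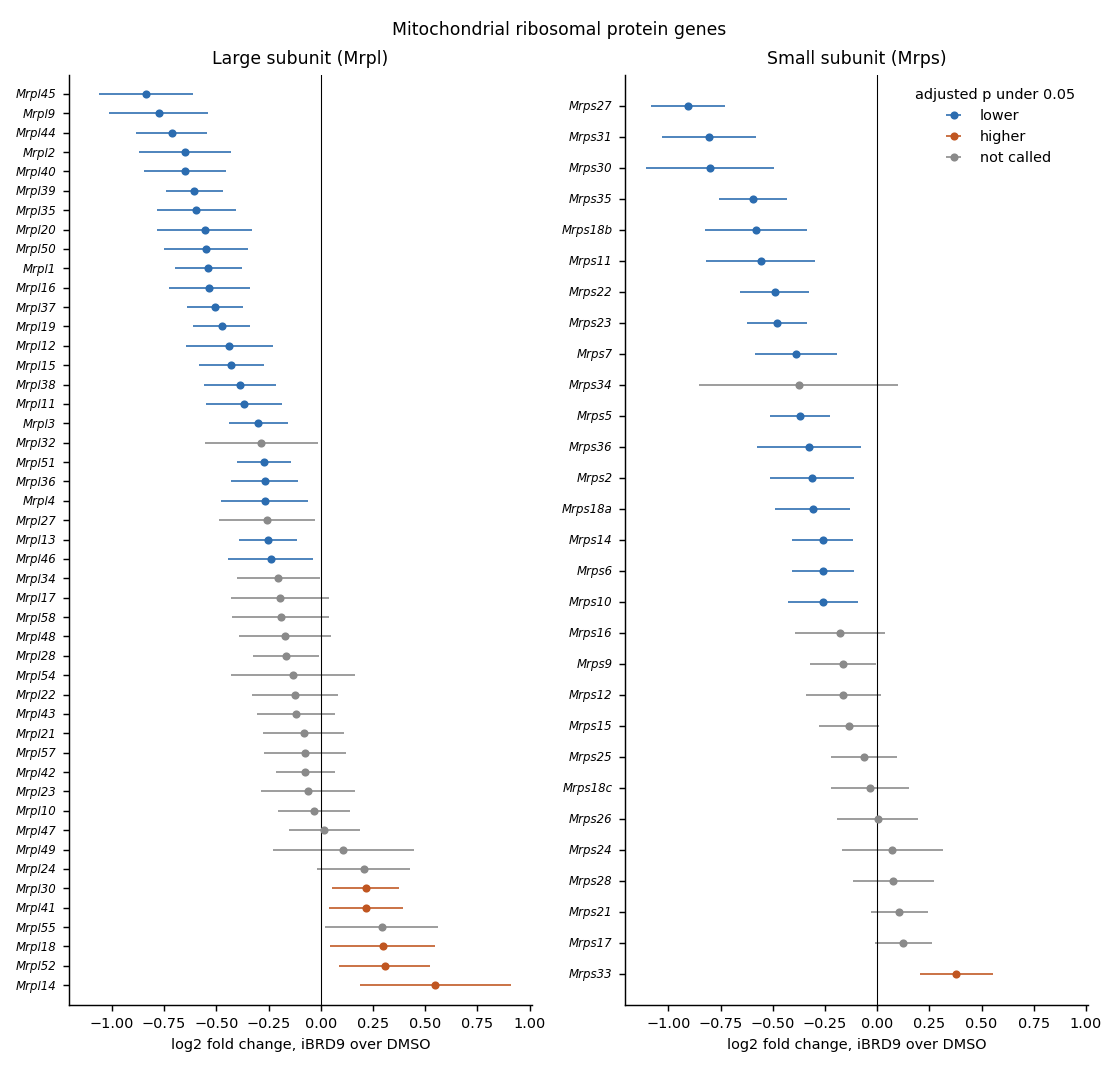
Log2 fold change (iBRD9 over DMSO, x axis) of each tested Mrpl gene (left) and Mrps gene (right), sorted by size. Points are edgeR estimates, lines are 95% confidence intervals and colors give the call at adjusted p under 0.05. Points called lower run from -0.84 to -0.24 among Mrpl genes and from -0.91 to -0.26 among Mrps genes. In all, 5 Mrpl points and 1 Mrps point are called higher.

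In 31 Mrpl genes the 3 iBRD9 values did not overlap with the 3 DMSO values, 25 of them with iBRD9 below. In 22 Mrps genes the groups did not overlap, 19 of them with iBRD9 below. Over all tested genes, the groups did not overlap in 68%, with iBRD9 below in 34.1% and above in 33.9%. DMSO replicate 1 had the lowest of the 3 DMSO levels in 33 of the 39 members that fell, and in 57 of all 76. Without that library, 33 Mrpl genes were lower and 7 higher, and 21 Mrps genes were lower and 1 higher, beside 37% of genes lower and 37% higher in the same fit. With library size alone as the scale, which moved the median of all genes by 0.11 on the log2 scale, 19 Mrpl genes were lower and 7 higher and 12 Mrps genes were lower and 3 higher, beside 24.9% and 36.8% of all tested genes.

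Promoter sequences are shown for members that fell or rose and hold letters known from genes of this family. NRF1 (nuclear respiratory factor 1) and the ETS family factor GABP are regulators of nuclear genes for mitochondrial proteins, and YY1 is a factor whose motif often lies near the start of housekeeping genes. RefSeq promoter windows (build GRCm38.p6, 250 bases before to 50 after a start) were at hand for 68 members, in 74 windows, 1 of them that of the untested Mrpl53. They were searched on both strands for the letters GCGCA, any base and GCGC (NRF1), CCGGAAG (ETS), AAGATGGCG (YY1) and CACGTG (E-box), and no 2 matches of different motifs overlapped in these windows. The NRF1 letters lay in 17.6% of member windows, in 9.67% of windows of tested genes and in 4.6% of all windows. The ETS letters lay in 33.8%, 17.2% and 8.86%, the YY1 letters in 10.8%, 2.93% and 1.4%, and the E-box letters in 9.46%, 9.73% and 7.15%.

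NRF1 letters lay in 5 of 35 windows of members that fell and in 2 of 6 windows of members that rose, and these 7 genes are printed. Each line gives the gene, the position in GRCm38.p6 of the 30 bases shown and the strand of the gene. The sequence follows, 5′ to 3′ on that strand, with the matched letters in capitals. In Mrpl12, in Mrpl30 and in the last site of Mrpl45 the match reads as its reverse complement on the gene's strand. Mrpl45, the large subunit gene with the largest fall, has 3 matches.
Mrpl45, chr11:97315586-97315615, plus strand: gaagcctcctGCGCAGGCGCagctggctct
Mrpl45, chr11:97315668-97315697, plus strand: tggtttcattGCGCACGCGCgaacccactg
Mrpl45, chr11:97315721-97315750, plus strand: tggagagcgtGCGCGTGCGCgcgactcacc
Mrpl9, chr3:94443298-94443327, plus strand: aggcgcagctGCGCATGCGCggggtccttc
Mrpl44, chr1:79775973-79776002, plus strand: agaagcacttGCGCACGCGCagtacactag
Mrpl39, chr16:84735350-84735379, minus strand: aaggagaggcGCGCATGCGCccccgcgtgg
Mrpl12, chr11:120484546-120484575, plus strand: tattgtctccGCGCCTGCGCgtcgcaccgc
Mrpl30, chr1:37890384-37890413, plus strand: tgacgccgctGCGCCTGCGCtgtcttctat
Mrpl14, chr17:45686343-45686372, plus strand: aacccctggcGCGCAGGCGCagcgtgcggg
The first 5 genes fell and the last pair, Mrpl30 and Mrpl14, rose, so the same letters lay near the starts of genes of both directions. Of the 32 windows of members not called, 6 held them as well.

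YY1 letters lay in 6 of 35 windows of members that fell, in 0 of 6 windows of members that rose and in 2 of 32 windows of members not called. The 6 sites of genes that fell are printed in the same way. In Mrps11 and Mrpl36 the match reads as its reverse complement on the gene's strand.
Mrps27, chr13:99344790-99344818, plus strand: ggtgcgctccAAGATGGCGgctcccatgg
Mrpl35, chr6:71823743-71823771, minus strand: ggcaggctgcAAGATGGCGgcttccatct
Mrps11, chr7:78783013-78783041, plus strand: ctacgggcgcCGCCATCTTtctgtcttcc
Mrpl37, chr4:107066822-107066850, minus strand: tgcacgggcaAAGATGGCGgcgtccaggt
Mrps18a, chr17:46111005-46111033, plus strand: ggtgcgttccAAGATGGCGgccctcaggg
Mrpl36, chr13:73330968-73330996, plus strand: cgtgaccttaCGCCATCTTtcttcctggc
Among them is Mrps27, the member with the largest fall of all. A match is a run of letters in a window and was not tested as a binding site, and these sites were chosen after the fold changes were seen. The ETS letters lay in 7 of 35 windows of members that fell, 3 of 6 of those that rose and 14 of 32 of those not called, and the E-box letters in 6, 0 and 1. The 6 E-box windows belong to 4 genes, since 3 are overlapping windows of Mrpl2.

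Among the Mrpl genes, the 6 largest falls were those of Mrpl45, Mrpl9, Mrpl44, Mrpl2, Mrpl40 and Mrpl39. The protein of Mrpl45 sits at the mouth of the exit tunnel and holds the ribosome to the inner membrane. Its levels, with libraries put on one scale by edgeR's TMM factors, were 55.1, 68.7 and 71.0 CPM with DMSO and 35.2, 36.6 and 37.4 CPM with iBRD9. The lowest DMSO library, replicate 1, was still above each iBRD9 library. The log2 fold change was -0.84 ± 0.098 (SE; edgeR quasi-likelihood, adjusted p = 0.000194), so that the level with iBRD9 was 56.0% of that with DMSO.

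Mrpl9 encodes the counterpart of bacterial protein L9. It was at 90.1, 117 and 117 CPM with DMSO and 65.5, 63.7 and 60.2 CPM with iBRD9, with DMSO replicate 1 again the lowest of its group and no overlap between groups. The log2 fold change was -0.78 ± 0.10 (edgeR adjusted p = 0.000375). Mrpl44, whose product resembles the enzyme ribonuclease III, was at 37.6, 42.3 and 41.8 CPM with DMSO and 25.2, 25.4 and 23.7 CPM with iBRD9. All 3 DMSO libraries lay close together and well above the iBRD9 libraries, with a log2 fold change of -0.71 ± 0.074 (edgeR adjusted p = 0.000101). The protein of Mrpl2 lies at the core of the large subunit, near the site of peptide bond formation, and its gene was at 57.6, 70.9 and 75.1 CPM with DMSO and 43.2, 43.5 and 42.9 CPM with iBRD9. The iBRD9 libraries were nearly equal and below every DMSO library, and the log2 fold change was -0.65 ± 0.096 (edgeR adjusted p = 0.000612).

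Mrpl40 encodes a protein of the central protuberance, the crown of the large subunit that faces the small one. Its levels were 27.1, 29.6 and 28.5 CPM with DMSO and 16.8, 19.8 and 17.7 CPM with iBRD9, without overlap. The log2 fold change was -0.65 ± 0.086 (edgeR adjusted p = 0.000347). Mrpl39, a mitochondria-specific subunit with a fold like that of a threonyl-tRNA synthetase, was at 55.9, 57.7 and 54.6 CPM with DMSO and 35.9, 37.5 and 37.1 CPM with iBRD9. Its 3 DMSO libraries differed little, DMSO replicate 1 was not the lowest of them, and the log2 fold change was -0.61 ± 0.060 (edgeR adjusted p = 7.72e-05).

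The stalk of the large subunit, where translation factors dock, is formed by the products of Mrpl10, Mrpl11 and Mrpl12. Of these 3 genes 2 fell, beside 30.9% of all tested genes. Without DMSO replicate 1, 2 fell as well, beside 37%. Mrpl12, whose product has also been described to bind the mitochondrial RNA polymerase, was at 18.02, 21.1 and 20.3 CPM with DMSO and 13.9, 14.8 and 15.3 CPM with iBRD9. The groups did not overlap, and the log2 fold change was -0.44 ± 0.091 (edgeR adjusted p = 0.00349). Mrpl11 was at 43.2, 50.01 and 49.4 CPM with DMSO and 34.97, 39.1 and 36.5 CPM with iBRD9, again without overlap and with a log2 fold change of -0.37 ± 0.080 (edgeR adjusted p = 0.00429). Mrpl10, whose product carries the copies of the Mrpl12 protein, was at 35.3, 40.1 and 40.97 CPM with DMSO and 36.7, 38.8 and 38.2 CPM with iBRD9. Its groups overlapped and it was not called: the log2 fold change was -0.03 ± 0.075, with a 95% interval of -0.21 to 0.14 (edgeR adjusted p = 0.711), and its estimate turned positive, 0.073, with library size alone.

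Among 8 genes of the central protuberance, 3 fell (Mrpl40, Mrpl38 and Mrpl46), 2 rose (Mrpl18 and Mrpl52) and 3 were not called, with a median log2 fold change of -0.22. The shares were 37.5% lower and 25% higher, beside 30.9% and 29.8% of all tested genes. The counts were 6 lower and 2 higher without DMSO replicate 1, beside 37% and 37% of all genes in that fit. Mrpl38 had a log2 fold change of -0.39 ± 0.075 (edgeR adjusted p = 0.0024). Mrpl46 starts head to head with Mrps11, another member, and shares exon bases with it, so their reads cannot be told apart where they overlap. Mrpl46 had a log2 fold change of -0.24 ± 0.088 (edgeR adjusted p = 0.0423), and that call was lost without DMSO replicates 2 or 3 or iBRD9 replicates 1 or 2, with estimates of -0.23 to -0.19. It was also lost with DESeq2 (-0.24), with a filter at 1 CPM (-0.22) and with library size alone (-0.13). Mrpl58, a peptidyl-tRNA hydrolase that became a ribosome subunit, was at 18.7, 21.4 and 21.9 CPM with DMSO and 16.3, 19.6 and 18.5 CPM with iBRD9. Its groups overlapped, and the log2 fold change of -0.19 ± 0.10 (interval -0.42 to 0.04; edgeR adjusted p = 0.133) was not called. Without DMSO replicate 1 it was -0.27 and was called (edgeR adjusted p = 0.00667).

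Among 8 genes whose products line the exit tunnel or its mouth, 3 fell (Mrpl45, Mrpl44 and Mrpl39), 0 rose and 5 were not called, with a median of -0.16. The share lower was 37.5%, beside 30.9% of all tested genes lower and 29.8% higher. The counts were 4 lower and 1 higher without DMSO replicate 1, beside 37% and 37% of all genes in that fit. Mrpl45, Mrpl44 and Mrpl39 are among the 6 largest falls of the Mrpl genes. Mrpl17, Mrpl22, Mrpl23, Mrpl24 and Mrpl47 of the same list had log2 fold changes of -0.20, -0.12, -0.06, 0.20 and 0.02, none of them called. Without DMSO replicate 1, Mrpl17 was called lower (-0.31, edgeR adjusted p = 0.000186) and Mrpl24 higher (0.29, edgeR adjusted p = 0.000417). Mrpl24 was also called higher with library size alone (0.31, edgeR adjusted p = 0.0338). Mrpl3, which encodes a core protein with a bacterial counterpart, was at 64.9, 65.9 and 67.2 CPM with DMSO and 53.7, 56.3 and 50.9 CPM with iBRD9. The groups were separate, and the log2 fold change was -0.30 ± 0.062 (edgeR adjusted p = 0.00324). The remaining 12 Mrpl genes that fell were Mrpl35, Mrpl20, Mrpl50, Mrpl1, Mrpl16, Mrpl37, Mrpl19, Mrpl15, Mrpl51, Mrpl36, Mrpl4 and Mrpl13, with log2 fold changes from -0.60 (Mrpl35) to -0.25 (Mrpl13). The call of Mrpl4 was lost when any library but DMSO replicate 1 was left out (-0.30 to -0.20) and with library size alone (-0.16), and those of Mrpl36 and Mrpl13 with library size alone (-0.16 and -0.15).

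The 5 Mrpl genes that rose were Mrpl14, Mrpl52, Mrpl18, Mrpl41 and Mrpl30. Mrpl14, whose product lies on the face that meets the small subunit, was among the genes with the lowest counts, at 6.77, 4.57 and 6.11 CPM with DMSO and 8.44, 9.29 and 7.77 CPM with iBRD9. No iBRD9 library overlapped with DMSO, and the log2 fold change was 0.55 ± 0.16 (edgeR adjusted p = 0.0155). Mrpl52 was at 16.7, 14.9 and 14.4 CPM with DMSO and 17.6, 18.9 and 20.4 CPM with iBRD9. Its groups were separate by a small margin, with a log2 fold change of 0.31 ± 0.096 (edgeR adjusted p = 0.0228). Mrpl18 was at 38.2, 28.5 and 31.1 CPM with DMSO and 38.7, 38.4 and 42.9 CPM with iBRD9. DMSO replicate 1 lay just below the iBRD9 libraries and well above the other DMSO libraries, and the log2 fold change was 0.30 ± 0.11 (edgeR adjusted p = 0.044).

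Mrpl41, a mitochondria-specific subunit, was at 16.3, 15.2 and 15.9 CPM with DMSO and 18.2, 18.1 and 18.8 CPM with iBRD9. The groups did not overlap, and the log2 fold change was 0.22 ± 0.077 (edgeR adjusted p = 0.0364). Mrpl30, whose promoter carries NRF1 letters as Mrpl14 does, was at 47.4, 50.05 and 51.7 CPM with DMSO and 54.2, 61.3 and 57.6 CPM with iBRD9. It also had no overlap, with a log2 fold change of 0.21 ± 0.070 (edgeR adjusted p = 0.0261). The count of rises in the large subunit depended on single libraries: it was 1, 2, 3, 0 and 2 without DMSO replicate 2, DMSO replicate 3 and iBRD9 replicates 1, 2 and 3, beside 23.3%, 25.3%, 24%, 23.9% and 23.9% of all tested genes. At an adjusted p under 0.01 it was 0, beside 20.8%. Over the fits that lost the call, the estimates without 1 library were 0.17 to 0.21 for Mrpl30, 0.18 to 0.23 for Mrpl41, 0.20 to 0.32 for Mrpl18 and 0.25 to 0.30 for Mrpl52, and 0.48 for Mrpl14 without iBRD9 replicate 2 (edgeR adjusted p = 0.0664).

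**Figure D2:**
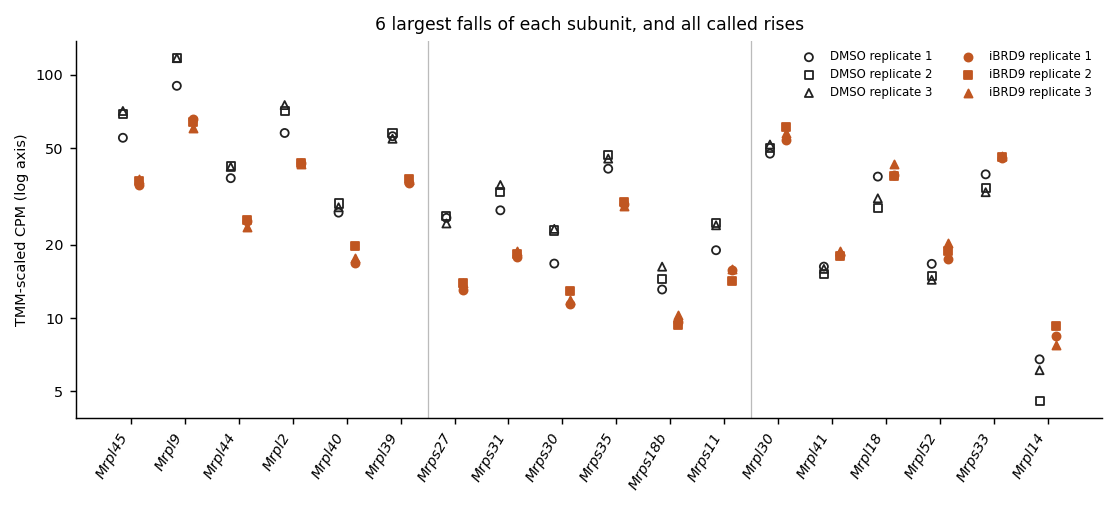
TMM-scaled CPM (log axis) in each of the 6 libraries for the 6 largest falls among Mrpl and among Mrps genes and for the 6 members that rose. Each point is 1 library, colored by treatment, with a marker for the replicate number. In each gene shown, the 3 iBRD9 points lie on the same side of the 3 DMSO points.

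Among the Mrps genes, the 6 largest falls were those of Mrps27, Mrps31, Mrps30, Mrps35, Mrps18b and Mrps11. Mrps27 encodes a mitochondria-specific protein with pentatricopeptide repeats, a fold that binds RNA. It was at 25.8, 26.3 and 24.5 CPM with DMSO and 13.0, 14.0 and 14.0 CPM with iBRD9; the libraries of each group lay close together and far from the other group. The log2 fold change was -0.91 ± 0.078 (edgeR adjusted p = 4.04e-05), or 53.4% of the DMSO level, the largest fall among the 76 members. Mrps31, another mitochondria-specific subunit, was at 27.7, 33.0 and 35.2 CPM with DMSO and 17.8, 18.3 and 18.9 CPM with iBRD9. DMSO replicate 1 was the lowest of its group and the groups did not overlap, with a log2 fold change of -0.81 ± 0.098 (edgeR adjusted p = 0.000235).

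Mrps30 and Mrps18a carry small-subunit names, but their proteins are found in the large subunit. Mrps30 was at 16.8, 22.9 and 23.3 CPM with DMSO and 11.46, 12.9 and 11.9 CPM with iBRD9. DMSO replicate 1 lay between the other DMSO libraries and the iBRD9 libraries, and the log2 fold change was -0.80 ± 0.13 (edgeR adjusted p = 0.00115). Mrps18a is 1 of 3 relatives of bacterial S18, with Mrps18b and Mrps18c, whose products sit in the small subunit. It was at 37.7, 42.3 and 42.6 CPM with DMSO and 32.2, 35.3 and 31.4 CPM with iBRD9, without overlap and with a log2 fold change of -0.31 ± 0.079 (edgeR adjusted p = 0.00908). Mrps18b was at 13.1, 14.5 and 16.3 CPM with DMSO and 9.64, 9.37 and 10.3 CPM with iBRD9, also without overlap. Its log2 fold change was -0.58 ± 0.11 (edgeR adjusted p = 0.00186). Mrps18c was at 23.0, 21.0 and 20.7 CPM with DMSO and 21.8, 19.8 and 21.5 CPM with iBRD9, with groups that overlapped. Its log2 fold change of -0.04 ± 0.082 (interval -0.22 to 0.15; edgeR adjusted p = 0.718) was not called, and its sign changed without DMSO replicate 1, without iBRD9 replicate 2 and with library size alone. The difference between these relatives was not tested.

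Mrps35, a mitochondria-specific subunit, was at 41.1, 47.0 and 45.2 CPM with DMSO and 29.6, 30.0 and 28.8 CPM with iBRD9. The groups were separate, and the log2 fold change was -0.59 ± 0.071 (edgeR adjusted p = 0.00022). Mrps11, the counterpart of bacterial S11, was at 19.0, 24.6 and 24.1 CPM with DMSO and 15.8, 14.2 and 15.9 CPM with iBRD9. DMSO replicate 1 was the lowest of its group but above iBRD9, and the log2 fold change was -0.56 ± 0.11 (edgeR adjusted p = 0.00302). Mrps22, a mitochondria-specific subunit known from inherited disease of the heart, was at 24.0, 25.7 and 24.7 CPM with DMSO and 17.5, 17.4 and 17.98 CPM with iBRD9. Its groups lay far apart for their spread, with a log2 fold change of -0.49 ± 0.072 (edgeR adjusted p = 0.000602).

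Counterparts of bacterial proteins in the small subunit include Mrps2, Mrps5, Mrps7, Mrps12 and Mrps16. Mrps7, which encodes a protein of the head of the subunit, was at 44.3, 54.7 and 49.2 CPM with DMSO and 36.1, 38.1 and 39.1 CPM with iBRD9. The groups did not overlap, and the log2 fold change was -0.39 ± 0.086 (edgeR adjusted p = 0.00466). Mrps5 was at 39.2, 40.1 and 41.9 CPM with DMSO and 32.0, 30.9 and 31.1 CPM with iBRD9, with a log2 fold change of -0.37 ± 0.063 (edgeR adjusted p = 0.00123), and Mrps2 had a log2 fold change of -0.31 ± 0.088 (edgeR adjusted p = 0.0148) from 28.9, 35.6 and 33.0 CPM with DMSO and 25.2, 26.7 and 26.8 CPM with iBRD9. In both, each iBRD9 library was below each DMSO library, and the call of Mrps2 was lost without DMSO replicate 2 (-0.25; edgeR adjusted p = 0.0612) and without iBRD9 replicate 1 (-0.28; edgeR adjusted p = 0.0648). Mrps12, whose product forms part of the decoding center, was at 19.9, 21.4 and 22.1 CPM with DMSO and 18.4, 18.9 and 19.5 CPM with iBRD9. The groups did not overlap, yet the log2 fold change of -0.16 ± 0.078 (interval -0.34 to 0.02; edgeR adjusted p = 0.104) was not called. Mrps16 was at 25.0, 30.6 and 29.3 CPM with DMSO and 23.7, 26.7 and 24.8 CPM with iBRD9. DMSO replicate 1 lay within the range of iBRD9, and the log2 fold change of -0.18 ± 0.094 (interval -0.39 to 0.04; edgeR adjusted p = 0.131) was not called. Without DMSO replicate 1 both were called lower, Mrps12 at -0.21 and Mrps16 at -0.27 (edgeR adjusted p = 0.0159 and 0.00152).

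Mrps34, a mitochondria-specific subunit, was at 8.51, 11.4 and 12.6 CPM with DMSO and 7.57, 10.9 and 6.63 CPM with iBRD9. The iBRD9 libraries spread widely and replicate 2 overlapped with DMSO. The log2 fold change of -0.38 ± 0.21 (interval -0.85 to 0.10; edgeR adjusted p = 0.147) was close in size to that of Mrps5 and was not called. It was called without DMSO replicate 1 (-0.53; edgeR adjusted p = 0.0158) and without iBRD9 replicate 2 (-0.61; edgeR adjusted p = 0.0322). Mrps36 fell by 0.33 on the log2 scale (edgeR adjusted p = 0.029), and its product is known as a subunit of the 2-oxoglutarate dehydrogenase complex rather than of the ribosome. That call was lost without DMSO replicates 2 or 3 or iBRD9 replicates 1 or 3, with estimates of -0.32 to -0.25. The other Mrps genes that fell were Mrps23 (-0.48), Mrps14 (-0.26), Mrps6 (-0.26) and Mrps10 (-0.26), with log2 fold changes in parentheses. The call of Mrps10 was lost without iBRD9 replicate 3 (-0.23; edgeR adjusted p = 0.0667), and those of Mrps10, Mrps6, Mrps2 and Mrps36 with library size alone (-0.22 to -0.15).

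Mrps33, which encodes a small mitochondria-specific subunit, was the Mrps gene that rose. Its levels were 39.0, 34.2 and 32.9 CPM with DMSO and 45.3, 46.1 and 46.5 CPM with iBRD9, without overlap. The log2 fold change was 0.38 ± 0.077 (edgeR adjusted p = 0.00298). It was called higher under all 13 alternatives, and so was none of the other 5 members that rose. Mrps17, Mrps21, Mrps24, Mrps26 and Mrps28 had estimates from 0.00 (Mrps26) to 0.13 (Mrps17) and were not called.

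The 19 Mrpl and 12 Mrps genes that were not called do not form a group shown to be unchanged. Their estimates were below 0 in 15 Mrpl and 7 Mrps genes. Without DMSO replicate 1, 10 more Mrpl genes and 5 more Mrps genes were counted as lower than with all 6 libraries. Over all genes, the share lower was 37% in that fit and 30.9% with all 6 libraries.

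Summed over the 47 tested Mrpl genes, levels were 1849, 2037 and 2057 CPM with DMSO and 1578, 1635 and 1618 CPM with iBRD9. Means were 1981 ± 115 and 1610.3 ± 29.4 CPM (SD, n = 3), a difference of -18.7%. Summed over the 29 Mrps genes, they were 982, 1071 and 1066 CPM with DMSO and 868, 908 and 898 CPM with iBRD9, or 1039.7 ± 49.9 and 891 ± 20.6 CPM, a difference of -14.3%. Neither sum overlapped between groups, and DMSO replicate 1 was the lowest DMSO library in both. With library size alone as the scale, the differences were -12.5% and -7.71%. The ratio of the Mrpl sum to the Mrps sum was 1.8826, 1.9018 and 1.9302 with DMSO and 1.8168, 1.8002 and 1.8031 with iBRD9. It was thus lower in each iBRD9 library. The sums go by gene name and not by place in the ribosome. The Mrps sum holds Mrps30 and Mrps18a, whose proteins are found in the large subunit, and Mrps36, known from another complex. Sums follow their most abundant members, and the median log2 fold changes of Mrpl and Mrps genes were close, at -0.25 and -0.26.

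**Figure D3:**
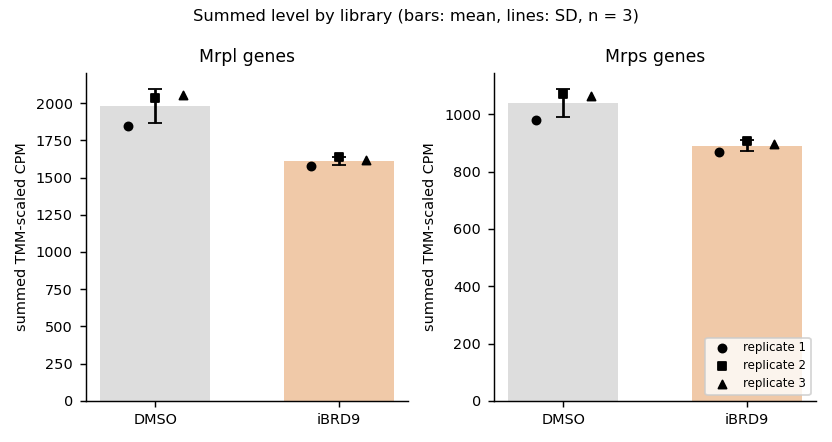
Summed TMM-scaled CPM of the 47 tested Mrpl genes and the 29 Mrps genes in each library. Points are libraries, bars are the mean of 3 libraries starting at 0 and lines are the SD. The iBRD9 points lie at 1578 to 1635 CPM for Mrpl and 868 to 908 CPM for Mrps, below the DMSO points, of which replicate 1 is the lowest.

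Levels per length differed widely among the members. As mean CPM per kilobase of exon with DMSO, the highest were Mrpl34 (70.5), Mrpl2 (58.0), Mrps21 (57.1) and Mrps6 (49.2), and the lowest were Mrpl23 (2.39), Mrpl32 (3.08) and Mrps30 (3.15). The median level was 15.4 with DMSO and 13.2 with iBRD9 for Mrpl genes and 11.1 and 8.94 for Mrps genes. The exon lengths come from GENCODE M21, an older annotation than the authors' build, and the transcripts these cells use were not determined, so this order is approximate.

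Members with a longer coding sequence had lower fold changes. Across genes, Spearman's rho between the log2 fold change and the longest coding length was -0.52 for 47 Mrpl genes and -0.65 for 29 Mrps genes. The genes share libraries and are not independent replicates, so these values are a description. All 4 members with a coding length over 1200 bases fell (Mrps27, Mrps30, Mrpl37 and Mrps5), and so did 10 of 11 with 900 to 1200 bases, all but Mrps9. Of 22 members with 600 to 900 bases 12 fell (54.5%), of 18 with 450 to 600 bases 7 fell (38.9%) and 2 rose, and of 21 with up to 450 bases 6 fell (28.6%) and 4 rose. Among all protein-coding tested genes of the same length classes, from long to short, 30.2%, 36.8%, 41.1%, 42.8% and 27.7% were lower. In the same order, 33.9%, 25.1%, 22.4%, 20.7% and 23.7% were higher. The share of lower members was thus near that of all genes in the 2 shortest classes. The share of higher members was 19% in the shortest class and 11.1% in the next, and no member of a longer class was called higher. The 6 members that rose had coding lengths from 318 (Mrps33) to 540.0 bases (Mrpl18).

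Against each DMSO library alone, rho over the 76 members was -0.57, -0.56 and -0.55. Within a treatment, the deviation of a library from its group mean had a rho with coding length of -0.19 to 0.24. Over 12148 protein-coding tested genes rho was 0.13, and over 78 cytosolic ribosomal protein genes and 80 nuclear genes of the respiratory chain and ATP synthase it was -0.54 and -0.61. With the length of all exons in place of the coding length, rho over the members was -0.28. The part of library preparation or RNA quality in this relation was not tested.

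**Figure D4:**
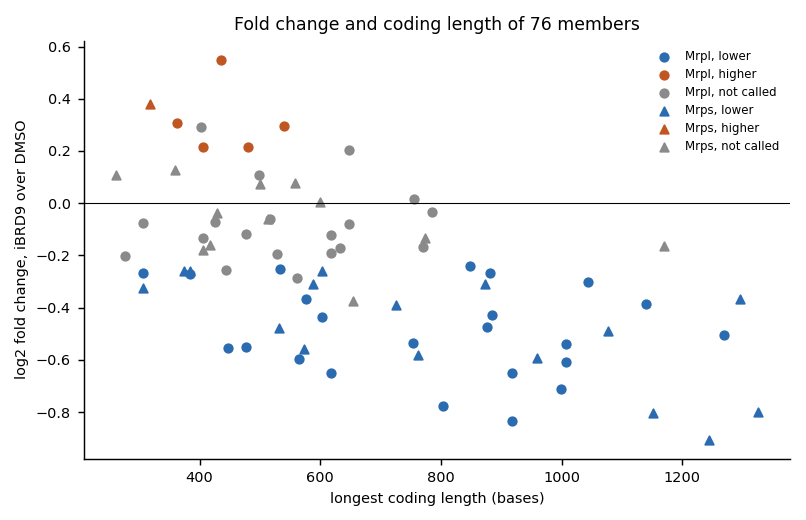
Log2 fold change (iBRD9 over DMSO, y axis) against the longest coding length in bases (x axis) of the 76 tested members, by subunit. Each point is 1 gene. The points fall toward longer coding sequences, with rho of -0.52 for Mrpl and -0.65 for Mrps. With all 6 libraries, no member over 600 bases was called higher.

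Of the 76 tested members, 31 share exon bases with another gene in GENCODE M21, 27 of them with a gene on the other strand. Strand was not given for these counts, so reads there cannot be assigned with certainty, among the genes given in full in Mrpl9, Mrpl44, Mrpl12, Mrpl10, Mrpl3, Mrpl58, Mrpl18, Mrpl14, Mrps27, Mrps30, Mrps18b, Mrps18c, Mrps11, Mrps7 and Mrps34. Of the 45 members that share none, 24 fell and 4 rose, beside 30.9% and 29.8% of all tested genes. Mrpl23, Mrpl48 and Mrps36 have pseudogenes that carry their name and are uncertain for that reason.

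The mitochondrial ribosome also holds proteins with other names, and 3 of 5 tested fell and 0 rose, beside 30.9% and 29.8% of all tested genes. The 3 falls were those of Chchd1 at -0.72, Aurkaip1 at -0.58 and Gadd45gip1 at -0.38 on the log2 scale (edgeR adjusted p = 0.000102, 0.000262 and 0.0165). Ptcd3, which helps to place messenger RNA on the small subunit, and Dap3, a protein of its head, were not called, at -0.12 and -0.07. Without DMSO replicate 1 all 5 were called lower, Ptcd3 at -0.16 and Dap3 at -0.12 (edgeR adjusted p = 0.00391 and 0.0176). In that fit 37% of all genes were lower. Gadd45gip1 was not called without iBRD9 replicate 1 (-0.28; edgeR adjusted p = 0.0551).

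Of 24 tested assembly factors, which modify ribosomal RNA or help the subunits mature, 10 fell and 3 rose, with a median of -0.22. That is 41.7% lower and 12.5% higher, beside 30.9% and 29.8% of all tested genes. The largest falls were those of the RNA methyltransferase Mrm3 (-0.98 ± 0.15), Ngrn (-0.88 ± 0.13) and the pseudouridine synthase Trub2 (-0.84 ± 0.088). Malsu1, which keeps an unfinished large subunit from joining the small one, the GTPase Noa1 and the helicase Dhx30 rose, by 0.45, 0.30 and 0.15 (log2; edgeR adjusted p = 0.00196, 0.00362 and 0.0317). Leaving out DMSO replicate 1 gave 11 lower and 4 higher, beside 37% and 37% of all genes in that fit. With library size alone, 6 assembly factors were called lower, beside 24.9% of all genes. The call of Dhx30 was lost when any library but DMSO replicate 1 was left out (0.14 to 0.17).

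Of 16 tested factors of mitochondrial translation, 10 fell and 2 rose, with a median of -0.24. That is 62.5% lower and 12.5% higher, beside 30.9% and 29.8% of all tested genes. Mtrf1, a release factor homolog, was at 3.47, 3.79 and 4.30 CPM with DMSO and 1.88, 1.92 and 1.86 CPM with iBRD9, without overlap and with a log2 fold change of -1.03 ± 0.16 (edgeR adjusted p = 0.000753). Taco1, an activator of translation of the cytochrome oxidase messenger RNA, and Oxa1l, the insertase that receives new chains at the exit tunnel, had log2 fold changes of -0.81 ± 0.11 and -0.66 ± 0.092 (edgeR adjusted p = 0.000392 and 0.000451). The 2 that rose act at the first methionine: Metap1d, an aminopeptidase that removes it (0.98 ± 0.18; edgeR adjusted p = 0.00168), and Mtfmt, which formylates it (0.48 ± 0.12; edgeR adjusted p = 0.00823). The count of falls was 6 without DMSO replicate 2, without iBRD9 replicate 3 or with library size alone. In those fits 26.1%, 25.6% and 24.9% of all genes were lower. Without DMSO replicate 1, 11 factors were called lower and 4 higher, beside 37% and 37% of all genes in that fit.

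Of the 17 tested mitochondrial aminoacyl-tRNA synthetases, 5 were lower and 5 higher, with a median of -0.13. That is 29.4% in each direction, near the 30.9% lower and 29.8% higher of all tested genes. Fars2, Rars2 and Tars2 had log2 fold changes of -0.86, -0.54 and -0.40, and Mars2 and Hars2 of 0.60 and 0.53 (all called). Lars2 was at 35.2, 51.3 and 34.4 CPM with DMSO and 172, 234 and 229 CPM with iBRD9, a log2 fold change of 2.39 ± 0.18 (edgeR adjusted p = 2.04e-05) that is larger in size than that of any Mrpl or Mrps gene. Leaving out DMSO replicate 1 gave 9 synthetases lower and 5 higher, beside 37% and 37% of all genes in that fit.

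Of 14 genes of mitochondrial transcription and its regulators, 4 fell and 2 rose, with a median of -0.06. That is 28.6% lower, near the 30.9% of all tested genes, and 14.3% higher, beside 29.8%. Yy1 was at 101, 111 and 113 CPM with DMSO and 84.2, 84.2 and 85.3 CPM with iBRD9, without overlap and with a log2 fold change of -0.36 ± 0.063 (edgeR adjusted p = 0.00141). Nrf1 was at 52.0, 61.2 and 60.4 CPM with DMSO and 45.0, 50.1 and 47.4 CPM with iBRD9, again without overlap and with a log2 fold change of -0.28 ± 0.081 (edgeR adjusted p = 0.0148). Tefm and Tfb2m, of the mitochondrial transcription machinery, fell by 0.35 and 0.29. The coactivators Ppargc1b and Pprc1 rose, by 0.90 and 0.43 (edgeR adjusted p = 0.00209 and 0.00726). Gabpa, the ETS subunit of GABP, and Tfam, which packages mitochondrial DNA, were not called, at -0.08 and -0.13 with intervals of -0.20 to 0.05 and -0.30 to 0.04. Without DMSO replicate 1 both were called lower, at -0.10 and -0.16 (edgeR adjusted p = 0.0434 and 0.0249), which made 6 lower and 2 higher. In that fit 37% of all genes were lower and 37% higher. The calls of Nrf1 and Tefm were lost without DMSO replicate 2, iBRD9 replicate 1 or iBRD9 replicate 3 and with library size alone. The estimates there were -0.29 to -0.18 for Nrf1 and -0.36 to -0.25 for Tefm. That left 2 falls, beside 26.1%, 26.3%, 25.6% and 24.9% of all genes lower in these fits. Tefm was also not called without DMSO replicate 3 (-0.34).

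Of the messenger RNAs that this ribosome translates, 12 were tested, and 9 were lower and 0 higher, with a median of -0.44. That is 75% lower, beside 30.9% of all tested genes. mt-Co1, a core subunit of cytochrome oxidase, was at 12087, 11670 and 11352 CPM with DMSO and 8200, 6593 and 6601 CPM with iBRD9, without overlap and with a log2 fold change of -0.71 ± 0.099 (edgeR adjusted p = 0.000434). The largest estimate, -1.86 ± 0.57 for mt-Co2 (edgeR adjusted p = 0.0197), came from 23.7, 18.7 and 95.5 CPM with DMSO and 13.7, 12.9 and 11.1 CPM with iBRD9, where DMSO replicate 3 stood far above the rest. Without DMSO replicate 3 it was -0.75 (edgeR adjusted p = 0.00216), and it was not called without DMSO replicate 1 (-2.17; edgeR adjusted p = 0.11) or without any 1 of the iBRD9 libraries (-1.94 to -1.79). mt-Atp6 had -1.02 ± 0.27 (edgeR adjusted p = 0.0101) from 5.86, 5.05 and 3.16 CPM with DMSO and 2.96, 1.92 and 1.98 CPM with iBRD9. mt-Nd3, also called lower, was at 8.42, 7.26 and 5.65 CPM with DMSO and 4.22, 4.68 and 5.32 CPM with iBRD9. The falls of mt-Co2, mt-Atp6 and mt-Nd3 thus rest on far fewer reads than that of mt-Co1. Reads of mitochondrial genes and of their nuclear copies can be confused, and how these were counted is not given. iBRD9 replicate 1 lay between DMSO and the other iBRD9 libraries in mt-Co1. The count of falls was 9 without DMSO replicate 1, 4 without iBRD9 replicate 2 and 5 without iBRD9 replicate 3. In these fits 37%, 25.9% and 25.6% of all genes were lower.

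Genes of the cytosolic ribosome had a pattern close in size. Of 78 tested, 42 were lower (53.8%) and 6 higher (7.69%), with a median log2 fold change of -0.26, and their summed CPM differed by -20.4%. Of 80 tested nuclear genes of the respiratory chain and ATP synthase, 43 were lower (53.8%) and 7 higher (8.75%), with a median of -0.21 and a difference of -22.7% in summed CPM. Leaving out DMSO replicate 1 gave 53 cytosolic and 51 respiratory genes lower, and 10 and 13 higher. In that fit 37% of all genes were lower and 37% higher. With library size alone, 37 and 37 were lower and 11 and 18 higher, beside 24.9% and 36.8% of all genes. Without iBRD9 replicate 2 or 3, 3 cytosolic genes were higher, beside 23.9% of all genes in each fit. The share of lower genes and the median of the Mrpl and Mrps genes lay close to those of both lists, and the difference from them was not tested.

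**Figure D5:**
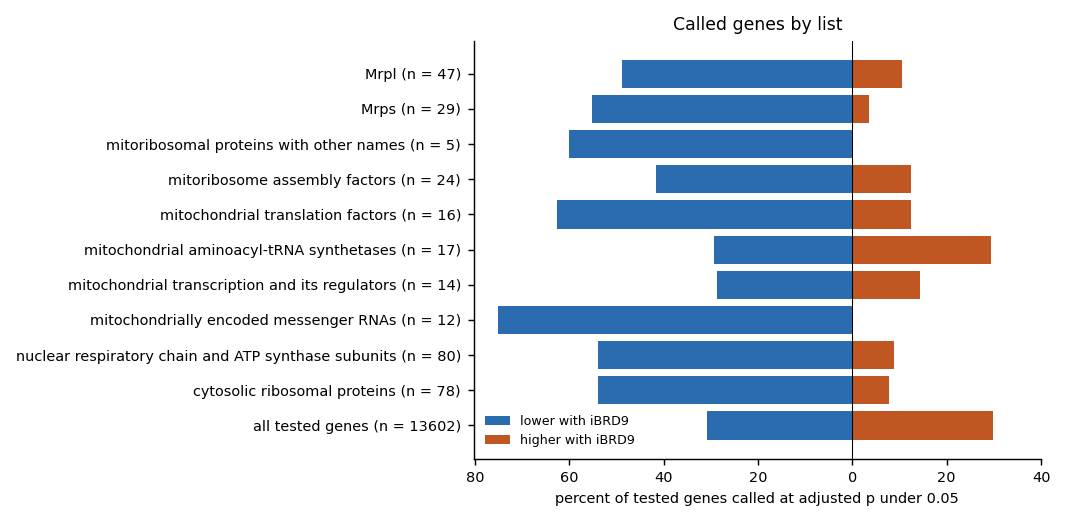
Percent of tested genes called lower (left of 0) and higher (right of 0) at adjusted p under 0.05 in each list, with the number tested in parentheses. Mrpl genes (48.9% lower, 10.6% higher) and Mrps genes (55.2% and 3.45%) stand beside the other lists and all tested genes (30.9% and 29.8%).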

How the data were processed

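The authors deposited 1 table of raw read counts per Ensembl gene ID for 6 libraries, and all 6 columns were used. The submitters' processing notes name CASAVA 1.8.2, Bowtie2 2.4.5 and the build GRCm39. How reads were counted, with which annotation, strand setting and read filter, is not given in the sources used here. Per the labels, the samples are independent, with nothing further said, so p-values measure the spread between these libraries. Of 35275 IDs, 34490 had a symbol, and the 785 without one held 0.0888% to 0.0908% of a library's counts.

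Genes were kept by filterByExpr (minimum count 10), scaled by TMM and tested over the whole table with the quasi-likelihood F-test of edgeR 4.0.16 (R 4.3.3; treatment as the sole term, two-sided, Benjamini-Hochberg over 13602 genes, called at adjusted p under 0.05). The biological coefficient of variation was 0.0921. In simulated counts of iBRD9 against DMSO over 13397 genes, 99 of 99 genes changed 2-fold and 88 of 101 changed 1.5-fold were recovered, with 8 false among 195 calls. Few genes changed there, against 60.7% called in the data.

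The members and lists were chosen with earlier results of these data known. Given in full are, in each subunit, the 6 largest falls and up to 6 rises among called genes (mean log2 CPM 1 or more). To these were added Mrpl3, Mrpl10, Mrpl11, Mrpl12, Mrpl44, Mrpl45, Mrpl58, Mrps2, Mrps5, Mrps7, Mrps12, Mrps16, Mrps18a, Mrps18b, Mrps18c, Mrps22, Mrps30, Mrps34 and Mrps35 whatever their values, and from the other mitochondrial lists up to 3 genes in each direction. Further genes were named for a count or a range after their values were seen. Coding lengths, exon lengths and overlaps came from GENCODE M21 and promoters from RefSeq, both of an older build than the authors'. The promoter table matched 68 members, and 9 had no window. Mrpl33 was not analysed here.

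The alternatives were DESeq2 size factors, library size alone, DESeq2 1.42.0, limma-voom (limma 3.58.1), no filter, a filter at 1 CPM in 3 libraries, a block for the replicate number, a stricter threshold (adjusted p under 0.01) and each library left out in turn. The chi-square per degree of freedom was 29.2 and 37.5 for DMSO replicate 1 against the other DMSO libraries and 1.93 to 6.33 for the other pairs within a group, so no library was a duplicate. Figures were drawn with matplotlib 3.10.9.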

Additional observations from a re-analysis of the deposited data

How the results depend on the processing

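Each member and count was refitted under 13 alternatives: 7 other settings and each of the 6 libraries left out. Of the 39 members that fell, 31 kept their call in all 13, as did 1 of the 6 that rose (Mrps33), and 12 of the 31 not called were called in none of them. The count of Mrpl rises was 5, and it was 3 with the replicate block, 0 at an adjusted p under 0.01 and 0 to 7 with 1 library left out. Of all genes, 28.8%, 20.8% and 23.3% to 37% were higher under these settings. The count of Mrps rises was 1, and it was 3 with library size alone and 2 with a filter at 1 CPM. Of all genes, 36.8% and 31.6% were higher there. With 1 library left out, 21 to 33 Mrpl and 14 to 21 Mrps genes were lower, beside 25.6% to 37% of all genes. The median log2 fold changes were -0.15 for Mrpl and -0.16 for Mrps genes with library size alone, a scale that moved the median of all genes by 0.11, and -0.30 to -0.20 and -0.32 to -0.25 with 1 library left out. The cause of these shifts was not tested, except that the library-size scale moves every gene alike.

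No called member changed sign. Members that were not called and changed sign with library size alone were Mrpl42 (0.031), Mrpl57 (0.031), Mrpl23 (0.044), Mrpl10 (0.073), Mrpl21 (0.026), Mrps25 (0.044) and Mrps18c (0.069), and Mrps26 did without a filter (-0.0023). With 1 library left out, the estimates ran from -0.030 to 0.059 for Mrpl47, -0.073 to 0.22 for Mrpl49, -0.0085 to 0.16 for Mrps24, -0.080 to 0.047 for Mrps26 and -0.071 to 0.005 for Mrps18c.

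The labels number the replicates 1 to 3 in both groups, but the numbers share no stated source. The deviations of same-numbered libraries from their group means correlated at 0.118, 0.0599 and 0.0248, and DMSO replicate 3 correlated best with another number (0.0469 with iBRD9 replicate 2), so no pairing was used. With the replicate block, 23 Mrpl genes were lower and 3 higher and 16 Mrps genes were lower and 1 higher. In that fit 29.5% of all genes were lower and 28.8% higher. With 3 libraries a group, a member that was not called may still differ.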
